A study of Mus musculus with 90 samples.

Results

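Hepatic loss of the glucocorticoid receptor (GR) was measured in unfed mice by RNA-seq of whole liver at ZT14, where ZT0 is lights on. The comparison takes 8 of the 54 RNA libraries of the series, which holds 90 samples in all: 4 livers labelled as a liver-specific GR knockout (L-GRKO) and 4 controls, all of them used. Every mouse carried 2 floxed copies of Nr3c1, the gene of GR, on a background labelled C57BL/6 (C57BL/6N in the study's methods) and was adult, with no exact age given. The L-GRKO mice received an adeno-associated virus with CRE recombinase (AAV-CRE) and the controls the same kind of virus with GFP (AAV-GFP), both 2 weeks before night-restricted feeding (NRF) per the labels, and the study's methods give a slightly shorter interval. On NRF, mice eat in the dark phase only. Both groups went through the NRF routine and then received no food from lights off until the livers were taken at ZT14. No hormone was injected. The 4 libraries of a group are separate mice, and the groups are called CRE and GFP below.

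Both viruses used the Tbg promoter, which is active in hepatocytes, so that GR remains in the other cells of the liver, and the vectors differ in their cargo and in their viral 3′ elements. An effect of CRE recombinase or of the vector itself cannot be told apart from that of GR loss, since no group of mice with intact Nr3c1 received AAV-CRE. In whole liver, fewer cells of a type and less RNA per cell cannot be told apart.

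GR is a nuclear receptor that moves into the nucleus when it is bound by the adrenal hormone corticosterone, and there it binds DNA at glucocorticoid response elements and raises or lowers the transcription of nearby genes. In nocturnal rodents the hormone peaks around the onset of the dark phase. In liver, GR is known for raising genes of amino acid breakdown, the urea cycle, and gluconeogenesis during fasting, and for raising genes that limit its own signaling, such as Fkbp5, Tsc22d3, and Per1.

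Values are RPKM, in which the reads of a gene are divided by the length of its transcript and by the reads mapped in the library. A log2 fold change is the CRE minus the GFP mean on the scale of log2(RPKM + 0.5), which understates changes of genes near 0.5 RPKM, and the number after ± is its standard error unless SD is named. Genes with an adjusted p under 0.05 (limma, Benjamini-Hochberg over all 11649 genes tested) are called risen or fallen. The depth of the 8 libraries, relative to their median, lay between 0.823 in CRE replicate 4 and 1.5 in GFP replicate 2. It was taken from the most common ratio of values between libraries, among transcripts detected in only some of them. Correlations of log2 values were between 0.977 and 0.988 among libraries of a group, and between 0.964 and 0.977 across groups. The first principal component held 37.7% of the variance and separated the groups. Hepatocyte markers were abundant in every library, with a summed level of 35404 to 48993 RPKM over 10 genes in GFP and 36820 to 47836 RPKM in CRE livers, and 8 of the 10 were not called, the others being Tat and Cps1, which are described below.

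Nr3c1 itself fell in every L-GRKO liver. GFP livers held 12.8, 14.5, 13.2 and 16.2 RPKM and CRE livers 3.93, 4.23, 4.14 and 5.35 RPKM, so that the CRE mean was 31.1% of the GFP mean (log2 fold change -1.58 ± 0.12, adjusted p = 6.8e-05, n = 4 per group). The groups did not overlap. The exact two-sided permutation test gave p = 0.0286, the smallest that 70 arrangements of 4 against 4 libraries allow. CRE excises only a part of the transcript and acts in hepatocytes, and how much of the remaining signal is shortened hepatocyte transcript or RNA of other cells was not tested.

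Of 11649 genes tested, 519 rose (4.46%) and 259 fell (2.22%) in CRE livers, 6.68% in all, and at an unadjusted p under 0.05 there were 2339. The shares of 4.46% and 2.22% are the background for the list counts below. The falls reached further than the rises: 109 of the fallen genes (0.936% of those tested) but 81 of the risen genes (0.695%) changed by at least 1 on the log2 scale, and 30 against 4 by at least 2. The median log2 fold change of the called genes was -0.88 among the fallen and 0.61 among the risen genes. The median of all genes tested was 0.08. Scaling the libraries to a common median ratio brought that median to -0.01 and turned the split, with 278 genes risen and 377 fallen, and quantile normalization gave 341 and 359. No gene called in either direction reversed under these scalings. The number of risen genes also rested on single libraries, with 223 without GFP replicate 2, 256 without CRE replicate 1, 219 without CRE replicate 2, and 310 without CRE replicate 3, while the fallen genes numbered between 172 (without CRE replicate 2) and 238.

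**Figure D1:**
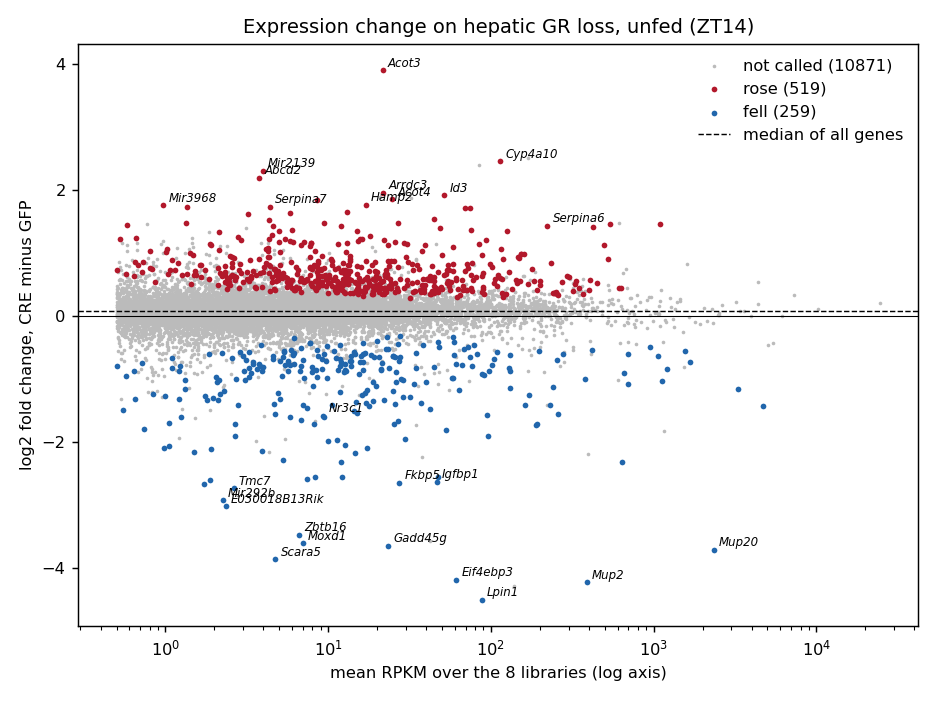
Log2 fold change (CRE minus GFP, y axis) against mean RPKM over the 8 libraries (x axis, log scale), 1 point per gene, with 519 risen genes in red, 259 fallen genes in blue, and 10871 genes not called in grey. The blue points reach further from 0 than the red, from Lpin1 at -4.50 to Acot3 at 3.90, and the dashed line is the median of all genes.

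The deepest fall was that of Lpin1, which encodes lipin 1, a phosphatidate phosphatase and transcriptional coactivator. GFP livers held 222, 156, 129 and 165 RPKM and CRE livers 9.04, 5.57, 5.80 and 7.46 RPKM (log2 fold change -4.50 ± 0.18, adjusted p = 6.3e-07), and the CRE mean was 4.14% of the GFP mean. Eif4ebp3, of the family of proteins that block the cap-binding factor eIF4E, went from 123, 99.5, 83.4 and 162 RPKM to 5.6, 5.91, 5.32 and 6.32 RPKM (log2 fold change -4.18 ± 0.17, adjusted p = 6.3e-07). In neither Lpin1 nor Eif4ebp3 did any CRE liver reach a level near that of a control.

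Gadd45g, a stress-inducible growth arrest gene, fell from 73.4, 39.7, 26.1 and 36.1 to 1.79, 2.55, 3.71 and 3.58 RPKM (log2 fold change -3.64 ± 0.29, adjusted p = 8.8e-05). Its paralog Gadd45a moved the other way, from 0.537 to 1.70 RPKM in GFP to 3.40 to 6.76 RPKM in CRE livers (log2 fold change 1.63 ± 0.27, adjusted p = 0.0063), and Gadd45b had overlapping groups (log2 fold change 0.07 ± 0.50, adjusted p = 0.96). Zbtb16, a zinc finger repressor, held 16.3, 8.17, 12.2 and 13.8 RPKM in GFP and 0.617, 0.573, 0.602 and 0.847 RPKM in CRE livers (log2 fold change -3.46 ± 0.19, adjusted p = 6.6e-06). The 4 CRE values of Zbtb16 lay within a narrow band under 1 RPKM.

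Scara5, a scavenger receptor that binds ferritin, was at 6.08 to 13.4 RPKM in GFP and 0.0490 to 0.361 RPKM in CRE livers (log2 fold change -3.85 ± 0.22, adjusted p = 9.4e-06). Moxd1, a monooxygenase-like gene, varied widely among controls, with 4.37, 22.4, 6.93 and 19.9 RPKM, and was at 0.0250, 0.679, 0.220 and 1.25 RPKM in CRE livers (log2 fold change -3.60 ± 0.51, adjusted p = 0.0027). Tmc7, a membrane protein of the transmembrane channel-like family, was at 3.43 to 7.69 RPKM in GFP and 0.0290 to 0.572 RPKM in CRE livers (log2 fold change -2.73 ± 0.26, adjusted p = 0.00032). The uncharacterized E030018B13Rik was at 2.60 to 5.71 RPKM in GFP and 0.030 to 0.277 RPKM in CRE livers (log2 fold change -3.01 ± 0.23, adjusted p = 7.5e-05). The row of Mir292b, a hairpin of the miR-290 cluster, was at 1.28 to 7.65 RPKM in GFP and 0 to 0.315 RPKM in CRE livers (log2 fold change -2.92 ± 0.39, adjusted p = 0.0019). These libraries hold poly(A) RNA, so that the row counts reads of a longer transcript over the hairpin and says nothing of the mature miRNA. The hairpin is short, so that values this low rest on few reads.

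Among the rises, Acot3, a peroxisomal acyl-CoA thioesterase, stood out. It held 5.21, 1.80, 2.84 and 0.514 RPKM in GFP and 40.9, 51.4, 50.9 and 19.3 RPKM in CRE livers (log2 fold change 3.90 ± 0.47, adjusted p = 0.0011). Its neighbor Acot4 went from 17.2, 8.13, 11.1 and 6.47 to 35.7, 46.5, 49.0 and 24.4 RPKM (log2 fold change 1.85 ± 0.28, adjusted p = 0.0043). Acot3 and Acot4 are near copies in 1 gene cluster, and how the authors' counting split shared reads is not given in the sources used here. In both genes GFP replicate 4 was the lowest control and CRE replicate 4 the lowest of the CRE livers.

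Cyp4a10, a fatty acid omega-hydroxylase, rose by the same test although the spread was wide, with 70.1, 18.7, 56.7 and 8.40 RPKM in GFP and 163, 384, 141 and 70.1 RPKM in CRE livers (log2 fold change 2.46 ± 0.65, adjusted p = 0.046). The highest control and the lowest CRE liver both stood at 70.1 RPKM. The call of Cyp4a10 (5 of the 8 libraries, adjusted p up to 0.15, without GFP replicate 2) was lost when 1 library was left out. Abcd2, a peroxisomal importer of very long chain acyl-CoA, was at 0.615 to 1.74 RPKM in GFP and 4.25 to 8.03 RPKM in CRE livers (log2 fold change 2.19 ± 0.25, adjusted p = 0.00074). Id3, an inhibitor of basic helix-loop-helix factors, rose with low spread, from 27, 14.7, 22.9 and 21.8 to 83.2, 92.5, 68.7 and 81.7 RPKM (log2 fold change 1.92 ± 0.17, adjusted p = 0.00015). Arrdc3, an arrestin-domain adaptor, was at 5.59, 5.25, 7.45 and 18.8 RPKM in GFP and 20.9, 29.7, 44.0 and 41.4 RPKM in CRE livers (log2 fold change 1.95 ± 0.36, adjusted p = 0.0099), GFP replicate 4 being the highest control.

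Serpina7, thyroxine-binding globulin, was at 1.02 to 2.85 RPKM in GFP and 3.71 to 12.6 RPKM in CRE livers (log2 fold change 1.74 ± 0.33, adjusted p = 0.012), and Hamp2, a gene of the hepcidin family, at 3.78 to 10.3 RPKM in GFP and 15.5 to 36.0 RPKM in CRE livers (log2 fold change 1.77 ± 0.30, adjusted p = 0.0072). The list of the 10 largest rises was completed by the rows of Mir2139 (log2 fold change 2.31 ± 0.51, adjusted p = 0.024) and Mir3968 (log2 fold change 1.76 ± 0.38, adjusted p = 0.023), at 0 to 2.90 RPKM in GFP and 2.97 to 10.4 RPKM in CRE livers and at 0 to 0.589 RPKM in GFP and 0.602 to 3.11 RPKM in CRE livers in that order, 3 of the 4 controls of Mir3968 being listed at 0. Hairpin rows are short, so that the lowest of these values rest on few reads. The calls of Mir2139 (without GFP replicate 2 or CRE replicate 1 or CRE replicate 2, adjusted p up to 0.082) and Mir3968 (5 of the 8 libraries, adjusted p up to 0.08, without GFP replicate 2) were lost when 1 library was left out. With a pseudocount of 0.1 Mir2139 was not called (adjusted p = 0.054).

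The classic GR targets, 22 measured genes (of 24 on the list, with Hif3a and Sult1e1 under the filter) that are known to respond to glucocorticoids in liver and other tissues, fell where they changed: 12 fell, 0 rose, and 10 were not called, with a median log2 fold change of -1.02 against 0.08 over all genes. Fkbp5, a cochaperone that lowers the hormone affinity of GR, held 70.2, 35.1, 44.3 and 40.3 RPKM in GFP and 7.57, 7.08, 6.00 and 7.22 RPKM in CRE livers (log2 fold change -2.64 ± 0.18, adjusted p = 3.9e-05). Tsc22d3, also known as GILZ, a mediator of anti-inflammatory glucocorticoid action, held 114, 80.9, 103 and 38.4 RPKM and 24.0, 21.4, 19.5 and 22.6 RPKM (log2 fold change -1.81 ± 0.28, adjusted p = 0.004). Ddit4, an inhibitor of mTORC1, held 32.8, 28.3, 14.8 and 7.58 RPKM and 3.03, 3.58, 3.52 and 2.93 RPKM (log2 fold change -2.30 ± 0.36, adjusted p = 0.0045). The controls of these genes spread more than the CRE livers, which were uniformly low.

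Errfi1, an inhibitor of EGF receptor signaling, was abundant in controls, with 383 ± 26.1 RPKM (SD, n = 4), and at 133 ± 33.8 RPKM in CRE livers (log2 fold change -1.55 ± 0.15, adjusted p = 0.00039). The other fallen genes of the list were Zbtb16, described above, Cebpd (-1.19), Tat (-1.03), Zfp36 (-1.01), Per1 (-0.84), Klf9 (-0.83), Tdo2 (-0.63) and Klf15 (-0.48), given with their log2 fold changes. In all 12 fallen genes the CRE livers lay wholly below the controls, as they did in 94.6% of all called falls and 3.26% of all genes tested (wholly above in 9.49%), and the shallowest fall, that of Klf15, a regulator of amino acid breakdown, was from 95, 77.8, 84.3 and 81.7 RPKM to 55.4, 58.6, 67.1 and 60.4 RPKM (adjusted p = 0.013). The count of fallen classic targets was between 9 and 14 under the other settings. The calls of Cebpd (without GFP replicate 2, adjusted p = 0.053), Per1 (without CRE replicate 2, adjusted p = 0.059), Tat (without GFP replicate 2 or CRE replicate 2, adjusted p up to 0.069), and Tdo2 (5 of the 8 libraries, adjusted p up to 0.09, without CRE replicate 1) were lost when 1 library was left out.

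The 10 classic targets that were not called included genes with 1 liver far from the rest. Cdkn1a, the cell cycle inhibitor p21, was at 23.7, 2.14, 4.66 and 1.31 RPKM in GFP and 0.574, 0.414, 0.366 and 1.33 RPKM in CRE livers (log2 fold change -2.15 ± 0.65, adjusted p = 0.081). Dusp1, a MAP kinase phosphatase, was at 48.5, 16.2, 13 and 13.6 RPKM and 8.61, 6.90, 13 and 4.77 RPKM (log2 fold change -1.25 ± 0.40, adjusted p = 0.096). Cdkn1a was called without GFP replicate 4 (adjusted p = 0.041). The metallothioneins Mt1 (log2 fold change -1.11 ± 0.49, adjusted p = 0.24) and Mt2 (log2 fold change -1.23 ± 0.43, adjusted p = 0.13) had their highest level in GFP replicate 3. For Sgk1, a kinase that corticosteroids raise in many cells, the groups coincided, with 9.17 ± 1.81 RPKM in GFP and 9.72 ± 1.90 RPKM in CRE livers (SD, n = 4), and the 95% interval of its log2 fold change was -0.27 to 0.43. The log2 fold changes of the remaining genes were Nfkbia (-0.41), Lcn2 (-0.46), Bcl6 (0.04) and Pdk4 (0.70), together with that of Gadd45b above.

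**Figure D2:**
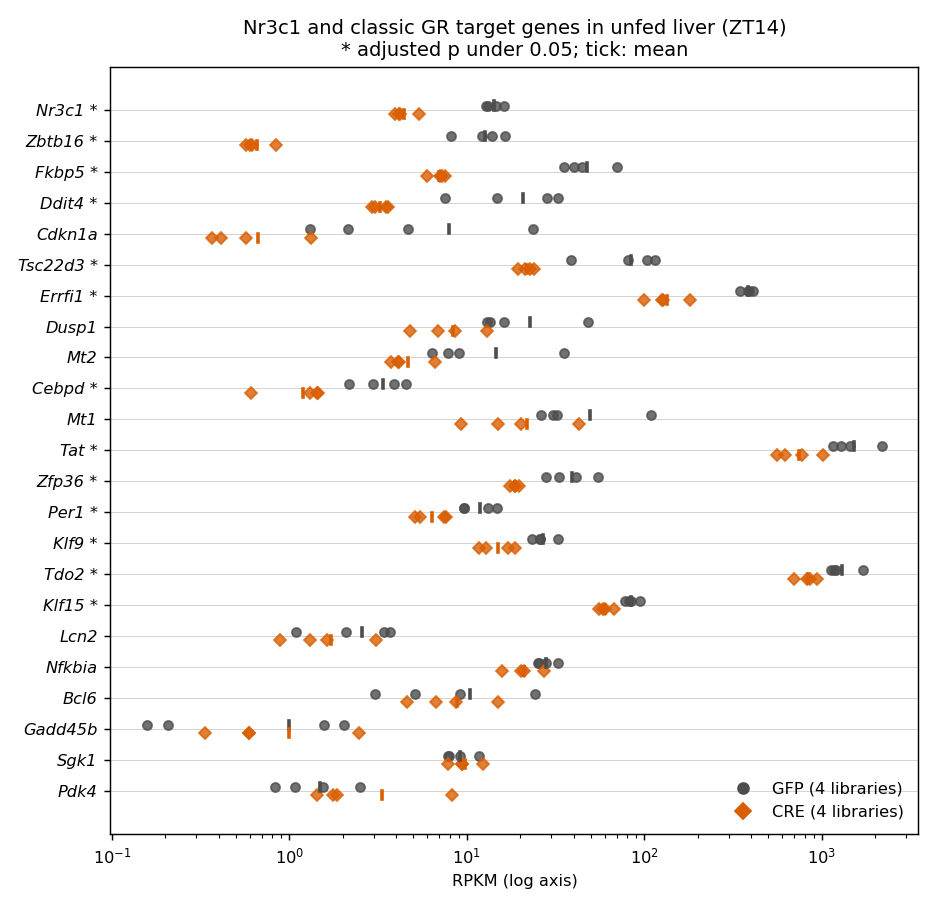
RPKM (x axis, log scale) of Nr3c1 and the 22 classic GR targets in the 4 GFP livers (grey circles) and the 4 CRE livers (orange diamonds), with the mean of each group as a tick and an asterisk at genes with an adjusted p under 0.05. The groups are apart in all 12 fallen genes, whereas Sgk1, Bcl6, and Gadd45b overlap throughout.

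GR binding was measured in other mice. The authors' list holds 10446 GR peaks that were concordant between replicate ChIP-seq experiments in unfed wild-type liver at ZT14, each of 180 bp, with no height. Among the 11139 tested genes with a start site in the annotation of mm9, 234 of 247 fallen genes (94.7%, 95% Wilson interval 91.2 to 96.9) had at least 1 GR peak within 50 kb of the transcription start site (TSS), against 357 of 492 risen genes (72.6%, 68.5 to 76.3) and 4707 of 10400 genes that were not called (45.3%, 44.3 to 46.2). The mean number of peaks per gene was 3.30, 1.92, and 0.968 in the same order, and the median distance from the TSS to the nearest peak was 4.72 kb, 15.3 kb, and 60.6 kb. Genes that lie close together share peaks, which these intervals do not take into account, and the list was not used to call genes. Peaks that overlapped a FOXO1 peak were found within 50 kb of 80.2% of fallen, 51.2% of risen, and 26.7% of uncalled genes. These shares also reflect the number of peaks per gene. Counted per peak, 56.3% of GR peaks within 50 kb of a fallen gene and 52.5% of those near a risen gene overlapped FOXO1. The share was 46.6% near tested genes none of which was called and 48.8% of all GR peaks.

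A glucocorticoid response element (GRE) is a pair of inverted half-sites with a spacer of 3 bases, searched here as GNACA, any 3 bases, and TGTNC, which reads the same on both strands. It was present in 88 of 710 GR peaks within 50 kb of a fallen gene (12.4%, Wilson interval 10.2 to 15), in 38 of 827 peaks within 50 kb of a risen gene (4.59%, 3.37 to 6.24), and in 379 of 4829 peaks near tested genes none of which was called (7.85%, 7.12 to 8.64), a peak near both a fallen and a risen gene being counted with both. Of 75067 DNase hypersensitive sites (DHSs) without a GR peak, cut to windows of the same length around their centers, 203 (0.270%) held it. The forkhead motif TGTTTAC on either strand was present in 7.18%, 8.59%, and 6.54% of the same 3 sets of peaks and in 4.45% of the DHSs. These are matches of letters, and no test was made of them.

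**Figure D3:**
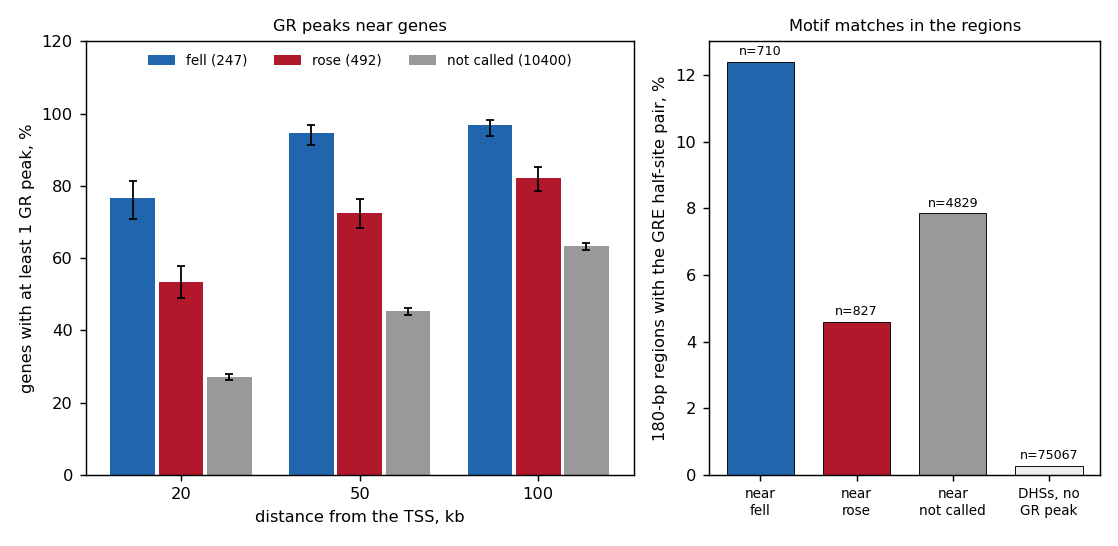
Left, the percentage of genes with at least 1 GR peak within 20, 50, or 100 kb of the TSS (bars, with 95% Wilson intervals) for genes that fell, rose, or were not called, and right, the percentage of 180-bp regions that hold the GRE pair, with the number of regions above each bar. Fallen genes have the highest bar at every distance, from 76.5% at 20 kb to 96.8% at 100 kb, and the pair is in 12.4% of the peaks near fallen genes and 4.59% of those near risen genes.

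The peaks printed here are, for 6 of the fallen genes described here, picked for their known functions after their values were seen, the GR peak nearest to the TSS that holds the GRE pair, which is in capitals. All are written 5′ to 3′ on the plus strand of mm9. That of Fkbp5 (chr17:28654979-28655158, intergenic, 599 bp upstream of the TSS) and that of Per1 (chr11:68910484-68910663, in an intron of Per1, 1854 bp downstream) both lie in DHSs. That of Klf15 (chr6:90421287-90421466) lies in an intron of Klf15, 8806 bp downstream of its TSS, and that of Prodh (chr16:18083522-18083701) in an intron of Prodh, 6685 bp downstream. That of Ddit4 (chr10:59436931-59437110) is intergenic, 22502 bp upstream, and is 1 of 11 GR peaks within 50 kb. That of Lpin1 (chr12:16625329-16625508) is intergenic, 28842 bp upstream, and is 1 of 6 GR peaks within 50 kb. The peaks of Per1, Prodh, and Lpin1 overlap a FOXO1 peak, and the others do not.
Fkbp5: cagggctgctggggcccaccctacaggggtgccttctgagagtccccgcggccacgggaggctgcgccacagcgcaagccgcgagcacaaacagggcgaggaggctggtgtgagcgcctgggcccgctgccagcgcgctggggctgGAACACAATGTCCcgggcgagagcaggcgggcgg
Per1: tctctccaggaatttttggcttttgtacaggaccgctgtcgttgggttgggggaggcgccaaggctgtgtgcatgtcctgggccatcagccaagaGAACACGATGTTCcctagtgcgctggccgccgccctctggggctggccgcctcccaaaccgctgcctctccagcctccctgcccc
Klf15: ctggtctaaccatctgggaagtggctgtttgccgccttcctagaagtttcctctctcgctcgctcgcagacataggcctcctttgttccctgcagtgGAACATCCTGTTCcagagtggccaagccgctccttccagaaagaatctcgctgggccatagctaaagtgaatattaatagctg
Prodh: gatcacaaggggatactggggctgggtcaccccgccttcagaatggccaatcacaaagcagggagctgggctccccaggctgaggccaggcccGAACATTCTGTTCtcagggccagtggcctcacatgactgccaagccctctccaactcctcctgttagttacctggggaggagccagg
Ddit4: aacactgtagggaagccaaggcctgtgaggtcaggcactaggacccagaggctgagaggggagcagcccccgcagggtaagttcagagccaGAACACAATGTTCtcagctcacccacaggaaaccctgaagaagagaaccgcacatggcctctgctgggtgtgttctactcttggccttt
Lpin1: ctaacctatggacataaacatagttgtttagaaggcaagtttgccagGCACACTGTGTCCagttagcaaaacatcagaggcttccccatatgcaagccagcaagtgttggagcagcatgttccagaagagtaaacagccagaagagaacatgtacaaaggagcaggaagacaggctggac
The GR peak closest to the TSS of Lpin1, 327 bp upstream, holds no match to the pair. No match was found in any GR peak within 50 kb of Tsc22d3, Tat, Zbtb16, or Gadd45g, which had 2, 6, 4, and 4 such peaks.

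Of 30 measured genes of amino acid breakdown, 8 fell, 3 rose, and 19 were not called (median log2 fold change -0.14). Sds, serine dehydratase, was at 392, 288, 275 and 228 RPKM in GFP and 84.1, 75.9, 77.0 and 123 RPKM in CRE livers (log2 fold change -1.71 ± 0.19, adjusted p = 0.00055). Tat, tyrosine aminotransferase, was at 2176, 1287, 1448 and 1156 RPKM and 779, 559, 1011 and 617 RPKM (log2 fold change -1.03 ± 0.22, adjusted p = 0.022). Got1, the cytosolic aspartate aminotransferase, went from 332, 262, 215 and 143 to 95.8, 81.8, 81.8 and 84.2 RPKM (log2 fold change -1.40 ± 0.21, adjusted p = 0.0035), and Prodh, proline dehydrogenase, from 77.4 ± 11.3 to 38.6 ± 1.13 RPKM (SD, n = 4; log2 fold change -0.98 ± 0.10, adjusted p = 0.00049). No pair of groups overlapped in these 4 genes, and CRE replicate 3 was the CRE liver closest to the controls in Tat. The 3 risen genes, Amdhd1 of histidine breakdown (0.57), Agxt of glyoxylate metabolism (0.46), and Aldh4a1, which follows Prodh in proline breakdown (0.44), changed by less, and none of the 3 was called after median-ratio scaling. The calls of Agxt (7 of the 8 libraries, adjusted p up to 0.095, without CRE replicate 1), Aldh4a1 (without GFP replicate 2 or CRE replicate 2 or CRE replicate 3, adjusted p up to 0.072), and Amdhd1 (without GFP replicate 2 or CRE replicate 1 or CRE replicate 2, adjusted p up to 0.06) were lost when 1 library was left out.

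In the urea cycle, which turns ammonia into urea, 4 of 8 measured genes fell and 0 rose. Arg1, arginase, fell from 974, 852, 943 and 1001 to 430.5, 427, 401 and 537 RPKM (log2 fold change -1.08 ± 0.11, adjusted p = 0.00047). Asl, argininosuccinate lyase, was at 504 ± 52.3 RPKM in GFP and 253 ± 33.1 RPKM in CRE livers (SD, n = 4; log2 fold change -1.0 ± 0.12, adjusted p = 0.00094). Cps1, carbamoyl phosphate synthetase, the entry step, was at 853 ± 103 and 457 ± 51.4 RPKM (SD, n = 4; log2 fold change -0.90 ± 0.12, adjusted p = 0.0017), and Ass1 fell by less (-0.55). All 4 had groups that did not overlap. Among 11 amino acid transporters, Slc38a2 (-1.05), Slc43a1 (-1.01), and Slc7a2 (-0.62) fell and Slc38a3 rose (0.44), which was not called after median-ratio scaling. The calls of Ass1 (6 of the 8 libraries, adjusted p up to 0.085, without CRE replicate 2), Slc43a1 (4 of the 8 libraries, adjusted p up to 0.06, without CRE replicate 1), Slc7a2 (7 of the 8 libraries, adjusted p up to 0.11, without CRE replicate 2), and Slc38a3 (without GFP replicate 2 or CRE replicate 1 or CRE replicate 2, adjusted p up to 0.065) were lost when 1 library was left out.

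Of 14 genes of gluconeogenesis, 3 fell and 0 rose. Slc37a4, the glucose 6-phosphate translocase, was at 136, 108, 136 and 123 RPKM in GFP and 75.6, 75.7, 56.1 and 66.7 RPKM in CRE livers (log2 fold change -0.87 ± 0.12, adjusted p = 0.0022). Pck1, phosphoenolpyruvate carboxykinase, was at 2266, 1918, 1857 and 2237 RPKM and 1148, 1008, 1878 and 1106 RPKM (log2 fold change -0.73 ± 0.18, adjusted p = 0.039). Its groups overlapped through CRE replicate 3, and the call was also lost with no filter, quantile normalization, no variance trend, or a replicate block. The call of Pck1 (7 of the 8 libraries, adjusted p up to 0.13, without CRE replicate 2) was lost when 1 library was left out. The third gene was Got1.

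In glucose handling and glycogen, 3 genes fell and 1 rose of 17. Pfkfb3, which makes the glycolytic activator fructose 2,6-bisphosphate, held 14, 14.2, 12.2 and 17.3 RPKM in GFP and 2.78, 1.73, 1.48 and 2.30 RPKM in CRE livers (log2 fold change -2.55 ± 0.17, adjusted p = 2.4e-05), and Pfkfb1, the liver isoform, 27.9, 16.6, 19.2 and 22.4 RPKM and 7.88, 10.9, 5.17 and 8.84 RPKM (log2 fold change -1.36 ± 0.21, adjusted p = 0.0045). In both genes every CRE liver was below every control, and 13 of the 17 genes of the list were not called. After median-ratio scaling 0 of the 17 rose.

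In fatty acid oxidation and ketogenesis, 6 of 26 genes rose and 0 fell, with a median log2 fold change of 0.45, and 3 rose after median-ratio scaling. Besides Cyp4a10, they included Vnn1, a pantetheinase and a marker of PPARα activity (6.5, 3.94, 8.01 and 4.98 RPKM in GFP and 21.2, 33.3, 15.5 and 11.5 RPKM in CRE livers, log2 fold change 1.65 ± 0.29, adjusted p = 0.0085). Acaa1b, a peroxisomal thiolase, was at 323, 219, 339.8 and 246 RPKM and 548, 955, 1086 and 601 RPKM (log2 fold change 1.46 ± 0.23, adjusted p = 0.0045), without overlap. Plin2, a lipid droplet coat protein, rose by 0.98 with overlapping groups. The call of Plin2 (6 of the 8 libraries, adjusted p up to 0.09, without GFP replicate 2) was lost when 1 library was left out.

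In fatty acid synthesis, 7 of 20 genes rose and 3 fell (median 0.45), and 3 rose after median-ratio scaling. Elovl5, a fatty acid elongase, rose from 48.8, 40.9, 42.8 and 34.0 to 102, 134, 111 and 86.6 RPKM (log2 fold change 1.36 ± 0.14, adjusted p = 0.00049). The other rises named by rule were Elovl6 (1.17), Srebf1 (0.80) and Acaca (0.76): an elongase, the factor SREBP-1, and acetyl-CoA carboxylase. The 3 falls included Lpin1 and Thrsp, which responds to thyroid hormone and carbohydrate, at 506, 263, 286 and 115 RPKM and 68.3, 58.9, 60.3 and 146 RPKM (log2 fold change -1.73 ± 0.41, adjusted p = 0.031). Thrsp overlapped because CRE replicate 4 was above GFP replicate 4, and this CRE liver was also the highest in Srebf1. In cholesterol synthesis, 3 of 20 genes rose, among them Sc5d (0.82) and Fdft1 (0.54), and Fdps (-0.78) fell, with 1 rise after median-ratio scaling. Of all genes tested, 4.46% rose and 2.22% fell. In bile acid synthesis and transport Cyp7b1 (-1.13) and Cyp27a1 (-0.55) fell and 0 rose of 16. The calls of Elovl6 (without GFP replicate 2 or GFP replicate 4 or CRE replicate 2, adjusted p up to 0.072), Srebf1 (5 of the 8 libraries, adjusted p up to 0.08, without GFP replicate 1), Acaca (without GFP replicate 2 or GFP replicate 4, adjusted p up to 0.071), Thrsp (6 of the 8 libraries, adjusted p up to 0.093, without GFP replicate 2), Fdft1 (4 of the 8 libraries, adjusted p up to 0.08, without CRE replicate 1), and Cyp7b1 (4 of the 8 libraries, adjusted p up to 0.068, without GFP replicate 2) were lost when 1 library was left out.

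**Figure D4:**
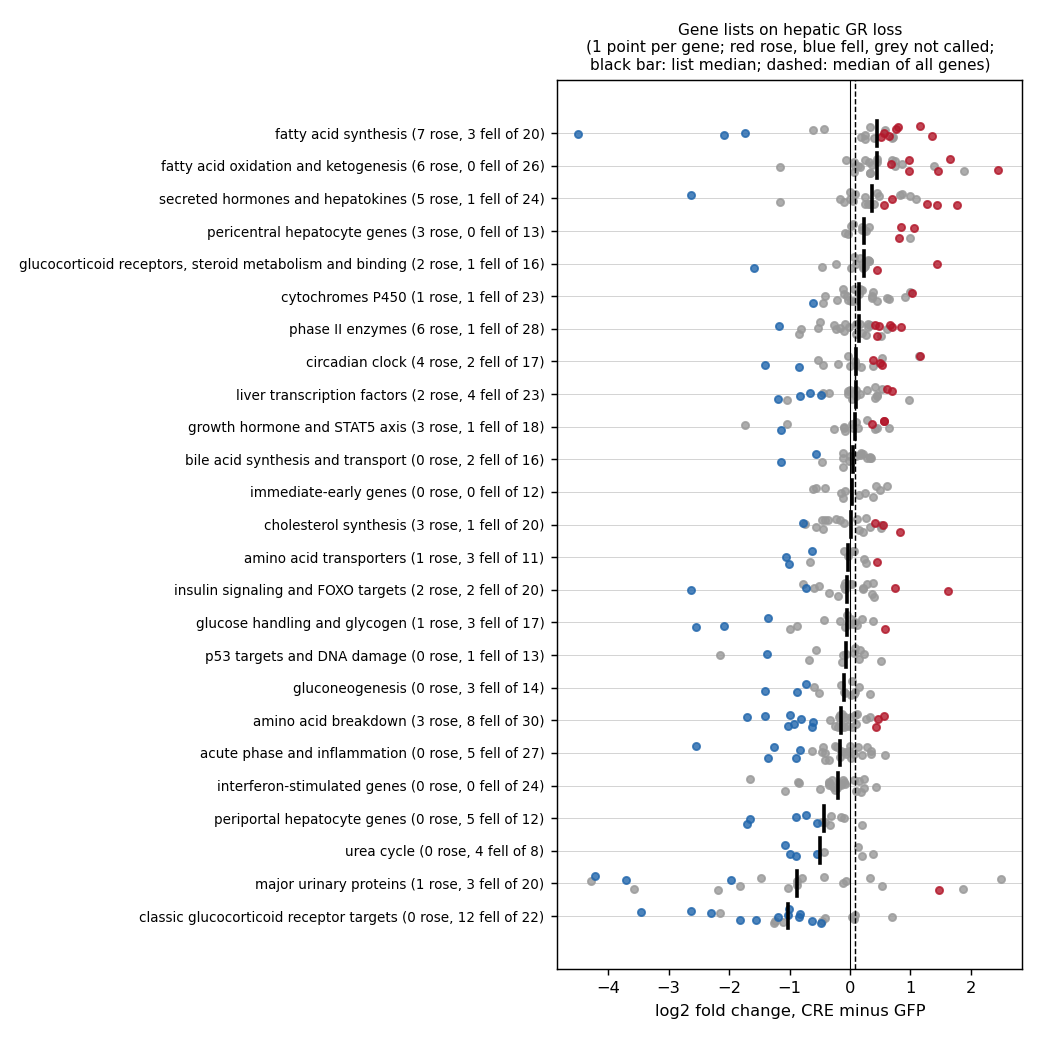
Log2 fold change (CRE minus GFP, x axis) of each measured gene in 25 gene lists (y axis, ordered by the median, drawn as a black bar), with risen genes in red, fallen genes in blue, and genes not called in grey. The classic GR targets lie lowest, with a median of -1.02 and no red point, and both fatty acid lists lie highest, at 0.45.

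Among secreted proteins and the insulin and FOXO targets, Igfbp1 was the main fall. This binding protein of insulin-like growth factors, a FOXO1 target that insulin represses, was at 91.1, 106, 43.8 and 77.2 RPKM in GFP and 8.41, 9.46, 25.6 and 9.51 RPKM in CRE livers (log2 fold change -2.62 ± 0.35, adjusted p = 0.0019), CRE replicate 3 being the highest of its group. Of the 20 measured genes of insulin signaling and FOXO targets, Igfbp1 and Pck1 fell, Gadd45a and Cited2 (0.74) rose, and 16 were not called. Serpina6, corticosteroid-binding globulin, the plasma carrier of the GR ligand, rose from 115, 107, 204 and 64.6 to 498, 278, 274 and 231 RPKM (log2 fold change 1.44 ± 0.32, adjusted p = 0.024). The activin subunits Inhbe (1.27, overlapping groups) and Inhbc (0.70) also rose, and of the 24 secreted proteins 5 rose, 1 fell, and 18 were not called. After median-ratio scaling 1 of the 24 rose. In the list of steroid receptors, metabolism, and binding, 13 of 16 genes were not called, and the others were Nr3c1, Serpina6, and Akr1c6, a hydroxysteroid dehydrogenase (0.45). Neither of the 2 rises of this list was called after median-ratio scaling. The calls of Serpina6 (without GFP replicate 2 or CRE replicate 1 or CRE replicate 2, adjusted p up to 0.08), Inhbe (5 of the 8 libraries, adjusted p up to 0.10, without GFP replicate 2), Inhbc (without GFP replicate 2 or GFP replicate 3 or CRE replicate 4, adjusted p up to 0.095), and Akr1c6 (without CRE replicate 2 or CRE replicate 3, adjusted p up to 0.075) were lost when 1 library was left out.

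Of 27 acute phase and inflammatory genes, 5 fell and 0 rose. Il1r1, the signaling receptor of interleukin 1, fell from 38.5, 14.3, 14.9 and 17.5 to 3.46, 3.06, 2.76 and 2.46 RPKM (log2 fold change -2.55 ± 0.27, adjusted p = 0.00048). Il6ra, the receptor of interleukin 6, was at 37.0, 21.1, 26.7 and 24.4 RPKM and 11.9, 10.8, 8.70 and 9.58 RPKM (log2 fold change -1.35 ± 0.16, adjusted p = 0.0011). Neither overlapped. The constitutive serum amyloid Saa4 (-1.26) and Lbp, the lipopolysaccharide-binding protein (-0.89), also fell. None of the 24 interferon-stimulated genes was called by limma (0 at an unadjusted p under 0.05), though single mice differed widely: Irf7 was at 72.4, 66.8, 20.1 and 76.5 RPKM in GFP and 16.8, 14.5, 15.3 and 96.7 RPKM in CRE livers (log2 fold change -1.07 ± 0.60, adjusted p = 0.36). For Irf7 the lowest control lay near 3 of the CRE livers and the fourth CRE liver above all controls, and without CRE replicate 4 Irf7 was called (-1.72, adjusted p = 0.028).

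The clock genes moved in both directions. Ciart, a repressor of CLOCK and BMAL1, fell from 18.9, 13.6, 20.1 and 10.5 to 6.66, 5.04, 4.92 and 5.22 RPKM (log2 fold change -1.41 ± 0.19, adjusted p = 0.002), and Per1 fell from 13.2, 9.62, 14.9 and 9.63 to 7.61, 5.09, 7.42 and 5.45 RPKM (log2 fold change -0.84 ± 0.17, adjusted p = 0.019). Nr1d1, which encodes REV-ERBα, rose from 4.59, 7.69, 7.59 and 12.7 to 17.7, 15.8, 24.8 and 14.3 RPKM (log2 fold change 1.16 ± 0.26, adjusted p = 0.024), and so did Bhlhe40 (0.54) and Tef (0.39). Of the 17 clock genes, 4 rose, 2 fell, and 11 were not called, and 2 rose after median-ratio scaling. All livers were taken at 1 time of day, so that a shift in phase cannot be told apart from a change in level. The calls of Per1 (without CRE replicate 2, adjusted p = 0.059), Nr1d1 (4 of the 8 libraries, adjusted p up to 0.073, without GFP replicate 2), and Tef (7 of the 8 libraries, adjusted p up to 0.11, without CRE replicate 2) were lost when 1 library was left out.

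Among 23 liver transcription factors, the C/EBP family split: Cebpa rose (90.8 ± 16.4 to 138 ± 6.98 RPKM, SD, n = 4; log2 fold change 0.61 ± 0.12, adjusted p = 0.014), while Cebpb (-0.65, overlapping groups) and Cebpd (-1.19) fell. Nr2f2, an orphan nuclear receptor, rose (0.69), Klf9 and Klf15 fell, and 17 were not called. In the growth hormone and STAT5 axis, Hsd3b5 (0.57), Ghr (0.56) and Igfals (0.36) rose and Cyp7b1 fell of 18 genes, and 0 rose after median-ratio scaling. The p53 targets gave 1 fall, that of Trp53inp1 (log2 fold change -1.38 ± 0.24, adjusted p = 0.0076), of 13, and 0 of the 12 immediate-early genes passed the limma test (2 at an unadjusted p under 0.05), among them Junb (0.49) and Ier2 (-0.07). Over all genes tested, 4.46% rose and 2.22% fell. The calls of Cebpb (6 of the 8 libraries, adjusted p up to 0.12, without GFP replicate 2), Cebpd (without GFP replicate 2, adjusted p = 0.053), Hsd3b5 (6 of the 8 libraries, adjusted p up to 0.14, without CRE replicate 2), and Igfals (7 of the 8 libraries, adjusted p up to 0.14, without CRE replicate 2) were lost when 1 library was left out. Without GFP replicate 4 Junb was called (adjusted p = 0.030).

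The major urinary proteins (MUPs), carriers of pheromones, are near-identical copies whose reads cannot be assigned with certainty, so that values of single rows are uncertain. Of 20 rows tested, 3 fell and 1 rose. The row of Mup20, the male pheromone darcin, was at 2201, 4769, 4397 and 5558 RPKM in GFP and 158, 176, 1124 and 283 RPKM in CRE livers (log2 fold change -3.70 ± 0.54, adjusted p = 0.0031), and that of Mup2 at 236, 652, 1207 and 588 RPKM and 7.07, 10.2, 375 and 29.7 RPKM (log2 fold change -4.22 ± 1.02, adjusted p = 0.034). In both rows CRE replicate 3 lay well above the other CRE livers, and in Mup2 it overlapped the controls. The row of Mup18 fell by 1.97 on the log2 scale, and the weakly expressed row of Mup1 rose from 2.57 to 6.37 RPKM to 11.6 to 17.8 RPKM. The number of fallen rows was 1 without any of GFP replicates 2, 3, and 4 or CRE replicates 1 and 2, 2 without CRE replicate 4, 5 without GFP replicate 1, and 9 without CRE replicate 3.

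Hepatocytes near the portal and near the central vein of the liver lobule express different genes. Of 12 periportal genes 5 fell and 0 rose (median -0.44): besides Sds, Cps1, Ass1, and Pck1, which also stand in the lists above, this was Sult5a1, a sulfotransferase, at 29.4 to 48.7 RPKM in GFP and 9.38 to 17.5 RPKM in CRE livers (log2 fold change -1.66 ± 0.19, adjusted p = 0.00095). Of 13 pericentral genes 3 rose and 0 fell (median 0.24): Tbx3 (1.06), Lgr5 (0.85), and Rnf43 (0.81), at levels between 0.435 and 7.17 RPKM. The other 10 were not called, among them Axin2 and Glul. The count of 3 was 0 without GFP replicate 2 or CRE replicate 1, 1 without GFP replicate 4 or CRE replicate 2, 2 without GFP replicate 1 or CRE replicate 3, and 4 without GFP replicate 3 or CRE replicate 4.

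Of 23 cytochrome P450 genes, Cyp2u1 rose (log2 fold change 1.03 ± 0.12, adjusted p = 0.00074) and Por, the reductase that serves them, fell (log2 fold change -0.61 ± 0.14, adjusted p = 0.024), and 21 were not called. These counts lie near the shares over all genes tested, of which 4.46% rose and 2.22% fell. Among 28 phase II enzymes, 6 rose and 1 fell, and 2 rose after median-ratio scaling. Gclc, the catalytic subunit of glutamate cysteine ligase, the first step of glutathione synthesis, rose from 52.0, 45.1, 55.8 and 65.7 to 89.5, 90.8, 115 and 97.4 RPKM (log2 fold change 0.85 ± 0.13, adjusted p = 0.0035), and its partner Gclm by 0.48. Sult1d1, a sulfotransferase, fell from 114, 81.6, 91.0 and 70.2 to 40.7, 35.5, 38.2 and 40.9 RPKM (log2 fold change -1.17 ± 0.14, adjusted p = 0.00089), and Sult1c2 (0.69) and Ugt3a1 (0.67) rose. The calls of Por (4 of the 8 libraries, adjusted p up to 0.074, without CRE replicate 1), Gclm (7 of the 8 libraries, adjusted p up to 0.12, without GFP replicate 2), and Sult1c2 (6 of the 8 libraries, adjusted p up to 0.13, without GFP replicate 2) were lost when 1 library was left out. Exons of Cyp2u1, Sds, Cebpb, Fdft1, Acot3, Acot4, Gadd45a, and Acaa1b overlap in part with genes on the opposite strand, whose reads cannot be told apart from theirs where strand was not used in counting.

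None of 11 Kupffer cell markers (summed level 133 to 288 RPKM in GFP and 141 to 247 RPKM in CRE livers) and none of 10 markers of sinusoidal endothelium (96.4 to 137 and 118 to 151 RPKM) was called (1 of each at an unadjusted p under 0.05), 1 of 10 stellate cell markers, Lrat, and 1 of 4 measured cholangiocyte markers rose, and the markers of lymphocytes and neutrophils were all under the filter of 0.5 RPKM. The exception was red blood cell RNA: 3 of 4 measured erythroid markers rose, with a summed level of 244 to 316 RPKM in GFP and 355 to 691 RPKM in CRE livers. The share of these markers in any other result was not tested. Among all genes tested, 4.46% rose and 2.22% fell.

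Dexamethasone, a synthetic ligand of GR, was given to other mice of the series, which allows gain of the hormone to be set beside loss of the receptor. Wild-type C57BL/6 mice (C57BL/6N in the methods) on NRF, aged 10 weeks per the study's methods, were injected with 1 mg/kg dexamethasone or vehicle before the meal and were fed until ZT14 (n = 4 per group). They share no library with the L-GRKO experiment, but they differed from it in feeding, genotype, and the absence of virus. In all, 114 genes rose (1.01%) and 241 fell (2.14%) with dexamethasone. Of the 256 genes that fell on GR loss and were tested in both, 42 rose with dexamethasone (16.4%, and 38.5% of the 109 dexamethasone-risen genes tested in both) and 4 fell. Of the 503 risen genes, 52 fell with dexamethasone (10.3%, and 21.6% of 241) and 3 rose. The median dexamethasone effect was 0.31 (log2) for the fallen, -0.23 for the risen, and -0.10 for all genes.

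**Figure D5:**
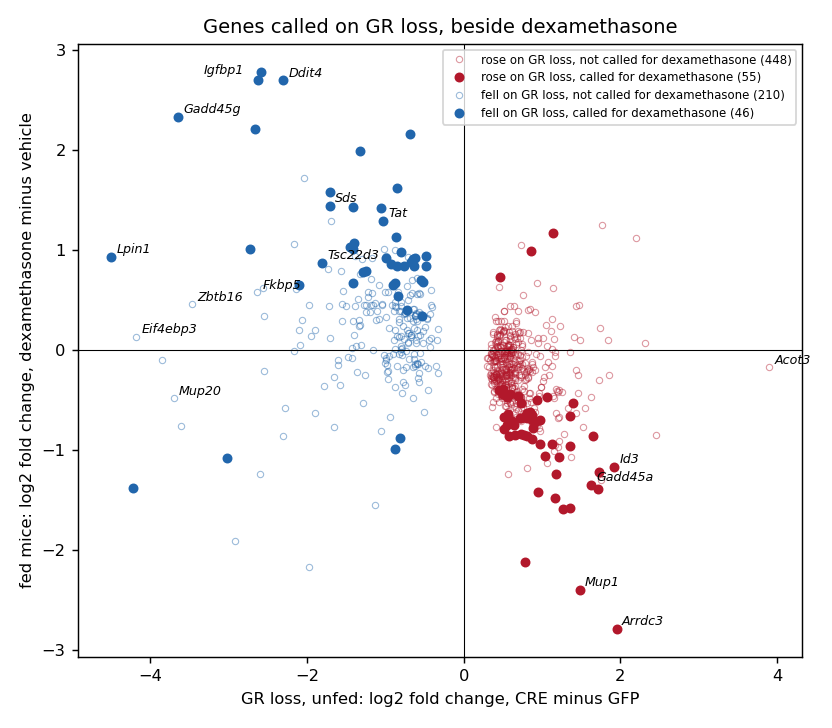
Log2 fold change of dexamethasone minus vehicle in fed mice (y axis) against that of CRE minus GFP in unfed mice (x axis) for the genes called on GR loss, with risen genes in red, fallen genes in blue, and filled points for genes called for dexamethasone as well. Filled blue points lie mostly above 0 (42 of 46) and filled red points mostly below 0 (52 of 55), while Acot3 (-0.17), Eif4ebp3 (0.13), and Zbtb16 (0.46) are open points.

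Both experiments called Gadd45g (-3.64 on GR loss and 2.33 ± 0.48, adjusted p = 0.011 with dexamethasone), Lpin1 (with dexamethasone 0.93 ± 0.22, adjusted p = 0.026), Sds (1.44 ± 0.25, adjusted p = 0.0035), and, in the opposite directions, Id3 (-1.17 ± 0.21, adjusted p = 0.0051), Arrdc3 (-2.79 ± 0.34, adjusted p = 0.00016), and Gadd45a (-1.35 ± 0.26, adjusted p = 0.0077). Some of the deepest falls on GR loss were not called for dexamethasone, among them Eif4ebp3 (0.13 ± 0.37, adjusted p = 0.89), Zbtb16 (0.46 ± 0.24, adjusted p = 0.31), Scara5 (-0.10 ± 0.40, adjusted p = 0.92), and Fkbp5 (0.58 ± 0.18, adjusted p = 0.082). Among the 10 classic targets that were not called on GR loss, these rose with dexamethasone: Lcn2 (3.29 ± 0.64, adjusted p = 0.007), Gadd45b (2.37 ± 0.47, adjusted p = 0.0085), Mt2 (2.10 ± 0.44, adjusted p = 0.012), Sgk1 (1.92 ± 0.27, adjusted p = 0.00076), Mt1 (1.91 ± 0.43, adjusted p = 0.017), Cdkn1a (1.86 ± 0.34, adjusted p = 0.0047), and Dusp1 (1.67 ± 0.24, adjusted p = 0.00077). Bcl6 was not called with dexamethasone (-0.20 ± 0.71, adjusted p = 0.91). On GR loss, the log2 fold changes were -2.15 for Cdkn1a, -1.25 for Dusp1, -1.23 for Mt2, -1.11 for Mt1, -0.46 for Lcn2, and 0.07 for Gadd45b. The groups of Sgk1 coincided there. Whether the effects differ in size was not tested, since hormone dose, feeding, and the length of the intervention all differ.

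The study addressed the part of GR activity in the response of liver genes to a meal. The meal was compared in vehicle-injected wild-type mice, fed against unfed at ZT14 (n = 4 per group), where 285 genes rose (2.53%) and 65 fell (0.578%). Of the 256 genes that fell on GR loss, 19 fell with the meal (7.42%, and 29.2% of the 65) and 2 rose. Of the 503 genes that rose on GR loss, 13 rose with the meal (2.58%), close to the 2.56% of all genes tested in both, and 4 fell.

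The genes given here side by side are among the 10 that fell on GR loss, rose with dexamethasone, and fell with the meal. That fed vehicle mice hold the lowest of the 3 levels therefore follows from the choice of genes. The dexamethasone and meal contrasts also share the fed vehicle mice, so that their directions are not independent of each other. Ddit4 was at 17.9 ± 6.20 RPKM (SD, n = 4) in unfed and 4.51 ± 1.60 RPKM in fed vehicle mice, and at 30.7 ± 2.45 RPKM in fed mice with dexamethasone. Igfbp1 was at 119 ± 67.8, 6.25 ± 3.68, and 41.6 ± 17.6 RPKM in the same order, so that dexamethasone brought it to an intermediate level. Tat was at 1839 ± 118, 875 ± 139, and 2135 ± 228 RPKM, and Tsc22d3 at 81.1 ± 1.76, 45.9 ± 9.12, and 88.2 ± 37.7 RPKM. The levels were 78.1, 49.6, and 89.0 RPKM for Klf15 and 154, 94.6, and 181 RPKM for Slc7a2.

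The series holds another hepatic knockout, of the insulin receptor substrates IRS1 and IRS2 (Alb-Cre on floxed Irs1 and Irs2, with floxed controls, n = 4 per group, C57BL/6 in the labels and C57BL/6J in the methods, 10 weeks old), in mice that were fed and had received 1 mg/kg dexamethasone. There 1176 genes rose (9.07%) and 1079 fell (8.32%). Of the 258 genes that fell on GR loss and were tested there, 43 fell (16.7%, and 4.13% of the 1040 that fell) and 37 rose (14.3%), against 9.01% and 8.96% of all genes tested in both. Of the 512 risen genes, 62 rose (12.1%) and 85 fell (16.6%). The effect of GR loss was above that of IRS loss for 1064 genes (8.47% of 12561 tested) and below it for 659 (5.25%), by the interaction term of 1 limma fit. That fit pooled the spread of both experiments. Of the fallen genes described here, Lpin1 (IRS loss 0.24, interaction adjusted p = 3.2e-08), Fkbp5 (-0.31, 2e-05), and Arg1 (0.01, 9.1e-05) were not called on IRS loss and differed between the knockouts. Igfbp1 and Ddit4 went in opposite directions: Igfbp1 rose by 3.30 (log2) on IRS loss and fell on GR loss (interaction adjusted p = 4.8e-06), and Ddit4 rose by 1.66 (interaction adjusted p = 0.00021). Scara5 fell in both knockouts (-2.98 on IRS loss), and a difference between them was not called (adjusted p = 0.58), as for Prodh (-0.88, adjusted p = 0.80). Feeding, dexamethasone, sequencing depth, the substrain, and the driver of CRE differ between the experiments, so that a difference in effect cannot be assigned to the gene that was lost.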

How the data were processed

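RNA-seq libraries were made by the authors from poly(A)-enriched RNA of single livers, aligned with STAR to mm9, and deposited as RPKM values for 35707 RefSeq IDs. The submitters' processing notes also name DESeq2 and HOMER, without versions. The counting tool, its use of strand, and its treatment of reads shared by near-identical genes are not given in the sources used here. Since RPKM are not counts, the count-based test of the authors was replaced by limma 3.58.1 (R 4.3.3), with a variance trend, on log2(RPKM + 0.5). Of the IDs, 35407 were matched to a symbol through the RefSeq gene table, 1 ID per symbol (the highest mean) was kept, and genes whose 8 libraries averaged 0.5 RPKM or more entered the test. P-values were adjusted by Benjamini-Hochberg with a threshold of 0.05. RPKM do not hold the number of reads, and the read totals that the study lists per library were not used here. Relative depth was instead taken from the most common ratio of values between libraries, among IDs detected in only some of them. The script was tested on simulated data with known changes.

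The dexamethasone and meal contrasts were fitted together over the 20 libraries of injected mice, and the IRS contrast and its difference from GR loss over 8 and 16 libraries. GR, FOXO1, and DNase lists were deposited by the authors as mm9 positions without scores: HOMER peaks concordant between 2 replicates for GR and FOXO1, and peaks from combined reads for DNase. Peaks were assigned to genes by the distance of their centers from the TSS in GENCODE vM1 (50 kb), and sequences were read from the mm9 genome (NCBIM37).

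Genes named in the text were Nr3c1, the 10 largest falls and 10 largest rises among called genes with non-overlapping groups and a mean of at least 1 RPKM in the higher group, the classic GR targets, and, of each other list, up to 4 called genes in each direction or, where none was called, up to 2 with the highest mean. Other named genes were chosen after their values were seen. The comparison, gene lists, and tests were chosen with earlier results of these data known, and no list is independent support for its direction. Alternatives covered the pseudocount, the filter, scaling, the variance trend, all RefSeq IDs, a replicate block, all 54 libraries in 1 fit, and each library left out. Sequences on chromosome 18 are not shown, and some called genes that the rule would name are not reported here, though counts over lists include them.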

Additional observations from a re-analysis of the deposited data

Results flagged for a closer look

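Over the 117 named genes, each group of 4 livers was examined for a highest or lowest liver that stood apart from the other 3 by more than Dixon's limit at the 95% level. Of 234 gene and group pairs, 18 were beyond the limit, where 11.7 (1 in 20) would be by chance. The values below are the gap as a share of the range.

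CRE replicate 4 was the highest CRE liver in Irf7 (0.924), Srebf1 (0.916), Bst2 (0.866), and Thrsp (0.838), of which Irf7 and Bst2 are interferon-stimulated and Srebf1 and Thrsp lipogenic, and the lowest in Cebpd (0.866). CRE replicate 3 was the highest in Igfbp1 (0.892) and Pdk4 (0.871), which insulin lowers. CRE replicate 1 was the lowest in Aldh4a1 (0.845) and Igfals (0.854) and the highest in Mir292b (1), the other 3 being listed at 0.

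Among controls, GFP replicate 1 was the highest in Dusp1 (0.836), Inhbe (0.846), Tdo2 (0.847), and Mir3968 (1), the other 3 being listed at 0. GFP replicate 3 was the highest in Agxt (0.847) and Mt1 (0.859) and the lowest in Irf7 (0.898). GFP replicate 2 was the lowest in Gadd45a (0.831).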

How the results depend on the processing

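Of the 102 named genes that were called, 53 kept their call under every alternative, those without 1 library included, and no called gene changed direction. Against 519 risen genes, 288 rose without a filter on low values (17899 genes tested), 278 after median-ratio scaling, and 341 after quantile normalization, and the rises were between 219 and 497 and the falls between 172 and 238 when 1 library was left out. The replicate numbers did not pair the livers: the correlation of deviations between same-numbered livers was between -0.05 and 0.16, and 1 of 4 livers correlated best with its own number. With a replicate block 388 genes rose and 240 fell, and the block changed the side of the threshold for 15 named genes, among them Tdo2 (adjusted p = 0.07) and Thrsp (adjusted p = 0.064).

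At an adjusted p under 0.01 in the other experiments, 9.38% of the fallen genes rose and 4.77% of the risen genes fell with dexamethasone, and 3.12% of the fallen genes fell and 1.19% of the risen genes rose with the meal. The shares of all genes at this threshold were not taken, so that these 4 values have no background to be read against. A GR peak within 20 kb was present for 76.5% of fallen, 53.5% of risen, and 27.2% of uncalled genes, within 100 kb for 82.1% of risen and 63.2% of uncalled genes, and within 50 kb inside a DHS for 91.1%, 66.1%, and 40.1%. Among genes that rose by at least 1 on the log2 scale, 81.9% had a peak within 50 kb. Uncalled genes near 0 turned sign: Bcl6 was at -0.057 after median-ratio scaling and -0.035 after quantile normalization, and Sgk1 at -0.017 and -0.0065. When 1 library was left out, the ranges were -0.37 to 0.56 for Bcl6, -0.036 to 0.20 for Sgk1, -0.32 to 0.41 for Gadd45b, and -0.22 to 0.10 for Ier2. For these the cause was not tested. With 4 livers a group and RPKM in place of counts, small changes of weakly expressed genes were not detectable.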

Other observations

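Several gene families of which a member led the results above were then followed over all their measured members, a choice made after the values were seen. The members first named in this section were not followed over the alternative settings or with 1 library left out. All 3 measured Id genes, which inhibit basic helix-loop-helix factors, rose: Id1 from 10.9, 1.62, 3.24 and 1.48 to 15.6, 11.8, 14 and 9.71 RPKM (log2 fold change 1.84 ± 0.46, adjusted p = 0.037), Id2 from 42.9, 20.2, 31.9 and 36.0 to 108, 92.9, 119 and 104 RPKM (log2 fold change 1.72 ± 0.19, adjusted p = 0.0007), and Id3 by 1.92. The groups of Id1 overlapped through GFP replicate 1. The 3 measured genes of 6-phosphofructo-2-kinase, Pfkfb1, Pfkfb2, and Pfkfb3, all fell, with Pfkfb2 from 10.6, 8.37, 10.9 and 12.3 to 6.22, 5.39, 4.73 and 5.39 RPKM (log2 fold change -0.89 ± 0.13, adjusted p = 0.0031). In the arrestin-domain family Arrdc2 fell (log2 fold change -0.87 ± 0.22, adjusted p = 0.039) where Arrdc3 rose, and Arrdc1 and Arrdc4 were not called. Of 10 measured acyl-CoA thioesterases, Acot3, Acot4, and Acot13 (log2 fold change 0.47 ± 0.12, adjusted p = 0.046, overlapping groups) rose. Acot2 was at 0.712 to 2.93 RPKM in GFP and 2.22 to 7.41 RPKM in CRE livers and was not called (log2 fold change 1.39 ± 0.37, adjusted p = 0.052). Acot1 varied between 7.54 and 37.4 RPKM in GFP and 9.93 and 63.1 RPKM in CRE livers (log2 fold change 0.74 ± 0.60, adjusted p = 0.55).

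Of 17 measured genes of the Serpina family, the hormone carriers Serpina6 and Serpina7 rose and 4 fell. Serpina7 lies on chromosome X, and the others on chromosome 12. Serpina3k was among the abundant transcripts, with 7561, 6302, 5332 and 8135 RPKM in GFP and 1862, 2566, 3203 and 2633 RPKM in CRE livers (log2 fold change -1.42 ± 0.19, adjusted p = 0.0018). The others were Serpina1e (log2 fold change -1.16 ± 0.25, adjusted p = 0.02), Serpina3c (log2 fold change -1.24 ± 0.28, adjusted p = 0.027), and the pseudogene Serpina4-ps1 (log2 fold change -2.54 ± 0.44, adjusted p = 0.0072). Serpina1a to Serpina1d, near copies of Serpina1e, were not called, and reads shared among these copies make single values uncertain. In the region of the miR-290 cluster 7 of 11 measured rows fell, the hairpin rows Mir290a, Mir291b, Mir292, Mir292b, and Mir294 together with D7Ertd143e (log2 fold change -2.16 ± 0.27, adjusted p = 0.0015) and the neighboring Nlrp12 (log2 fold change -2.28 ± 0.31, adjusted p = 0.0022). Nlrp12 held 11.4, 6.37, 8.06 and 9.88 RPKM in GFP and 2.22, 2.52, 0.981 and 0.566 RPKM in CRE livers. The hairpin rows of the cluster are short and rest on few reads. They lie close together and can count reads of the same longer transcript, so that the fallen rows are not shown to be separate signals. Of 7 measured erythroid genes (6 globin rows and Alas2), 5 rose, with Hba-a1 from 104 ± 17.0 to 214 ± 77.1 RPKM (SD, n = 4; log2 fold change 0.98 ± 0.23, adjusted p = 0.029). Globin rows came in pairs with nearly the same GFP mean: Hba-a1 and Hba-a2 (104 and 100 RPKM), Hbb-b1 and Hbb-bs (99.4 and 98.6 RPKM), and Hbb-b2 and Hbb-bt (23.1 and 23.2 RPKM). Reads shared within a pair cannot be told apart here, so that the risen rows are not separate signals.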
